A study of Mus musculus with 32 samples.

Results

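Hippocampal gene expression was compared between inbred mouse strains that lose their photoreceptors to the rd1 allele of Pde6b and inbred strains that do not. The rd1 set was C3H/HeJ, FVB/NJ and SJL/J, with 12 of the 32 arrays of the series and 3 of its 8 strains. The other 5 strains, SvImJ (short for the strain titled hippocampus_129S1SvImJ in the labels), A/J, BALB/cByJ, C57BL/6J and DBA/2J, with 20 arrays, are called sighted below. The sets were drawn from what is known of these strains at Pde6b, not from any measured value, and the sample labels give the strain alone. All mice were untreated. RNA of 6 mice was pooled within each strain, 1 pool a strain, and cRNA was prepared from it in 2 preparations, each hybridised to 2 arrays. The sources used here state neither age nor sex. Because the 4 arrays of a strain share a pool, the unit of comparison was the strain: log2 signal was averaged over the 4 arrays, and 3 strain means were set against 5. The strains of each set differ from those of the other at many loci besides Pde6b, and FVB/NJ and SJL/J both descend from Swiss stock, so retinal status and shared ancestry cannot be told apart here. Both sets hold albino and pigmented strains.

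Pde6b encodes the beta subunit of the cGMP phosphodiesterase of rods, the enzyme that closes the cGMP-gated channels of the outer segment in light. In rd1 homozygotes the enzyme is not made, cGMP accumulates, rods die within weeks of birth and cones follow, so adult mice of these strains have no patterned vision. The hippocampus receives visual information only through cortical and subcortical relays, and strains with rd1 are known for poor scores in hippocampal tasks that rest on visual cues, such as the water maze. Melanopsin ganglion cells survive, and rd1 mice still entrain their clock to light.

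Of 12422 probe sets that are not controls, the brightest 7453, which cover 5660 named genes, entered the tests. Medians of single arrays went from 29.4 to 43.7 in linear signal, and the number of strains limits the precision. Principal markers of hippocampal fields were above the limit in both sets: the dentate granule cell factor Prox1 had a mean log2 signal of 5.43 in the rd1 strains and 5.17 in the sighted ones, and Wfs1, which marks CA1, 8.07 and 8.06. Control probe sets of sense orientation for actin and Gapdh exceeded a mean log2 signal of 6 on 5 of 12 rd1 arrays and 6 of 20 sighted arrays, among the latter all 4 of BALB/cByJ.

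A single gene differed between the sets after adjustment for all probe sets tested. Gcsh, the lipoylated carrier protein of the mitochondrial glycine cleavage system, was 2.01-fold lower in the rd1 strains (log2 difference -1.01 ± 0.11, SE, 3 against 5 strains, adjusted p = 0.01, limma with Benjamini-Hochberg adjustment). It was the 1 probe set of 7453 (0.0134%) past an adjusted p of 0.05. At an unadjusted p under 0.05 there were 87 probe sets higher in the rd1 strains (1.17%) and 80 lower (1.07%), together 2.24% of those tested, where this threshold by itself passes 5% of probe sets when none differs. All 3 rd1 strain means lay above all 5 sighted means for 80 probe sets (1.07%) and below all 5 for 100 (1.34%), together 2.42%. When no probe set differs, a share of 0.0357 is fully divided in this way, from the 56 labellings of 3 among 8 strains. Both criteria held for 87 probe sets, 42 higher and 45 lower, and only Gcsh and Rpp14 among them differed by 2-fold or more. A typical difference was small: its median size over all tested probe sets was 0.10 on the log2 scale, and 9 in 10 were within 0.30, where 1 is 2-fold.

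**Figure D1:**
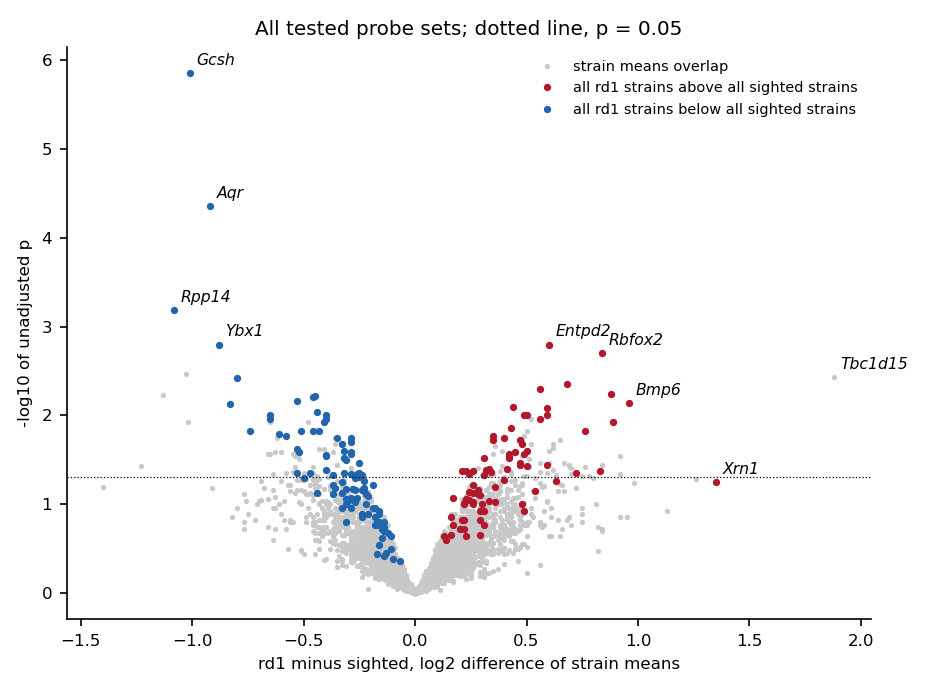
Each point is 1 of the 7453 tested probe sets, with the log2 difference of strain means (rd1 minus sighted) on the horizontal axis and -log10 of the unadjusted limma p on the vertical axis. Coloured points are probe sets whose 3 rd1 and 5 sighted strain means do not overlap, and Gcsh stands highest at a difference of -1.01.

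The Gcsh signal divided the arrays without exception. The 12 rd1 arrays ran from 6.18 to 6.82 with a median of 6.56, and the 20 sighted arrays from 7.23 to 7.78 with a median of 7.57 (log2 signal). Strain means were 6.53 in C3H/HeJ, 6.46 in FVB/NJ and 6.66 in SJL/J. Those of the sighted strains were 7.55 in SvImJ, 7.58 in A/J, 7.46 in BALB/cByJ, 7.58 in C57BL/6J and 7.61 in DBA/2J. The means of the sets were 6.55 ± 0.10 (SD, n = 3) and 7.56 ± 0.06 (SD, n = 5), so the gap was many times the spread of strains within either set. With 3 strains against 5 an exact permutation test over the 56 labellings can give no two-sided p below 0.0357. Gcsh lies on chromosome 8 and had 1 tested probe set, so no second reading of its transcript stands beside it.

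**Figure D2:**
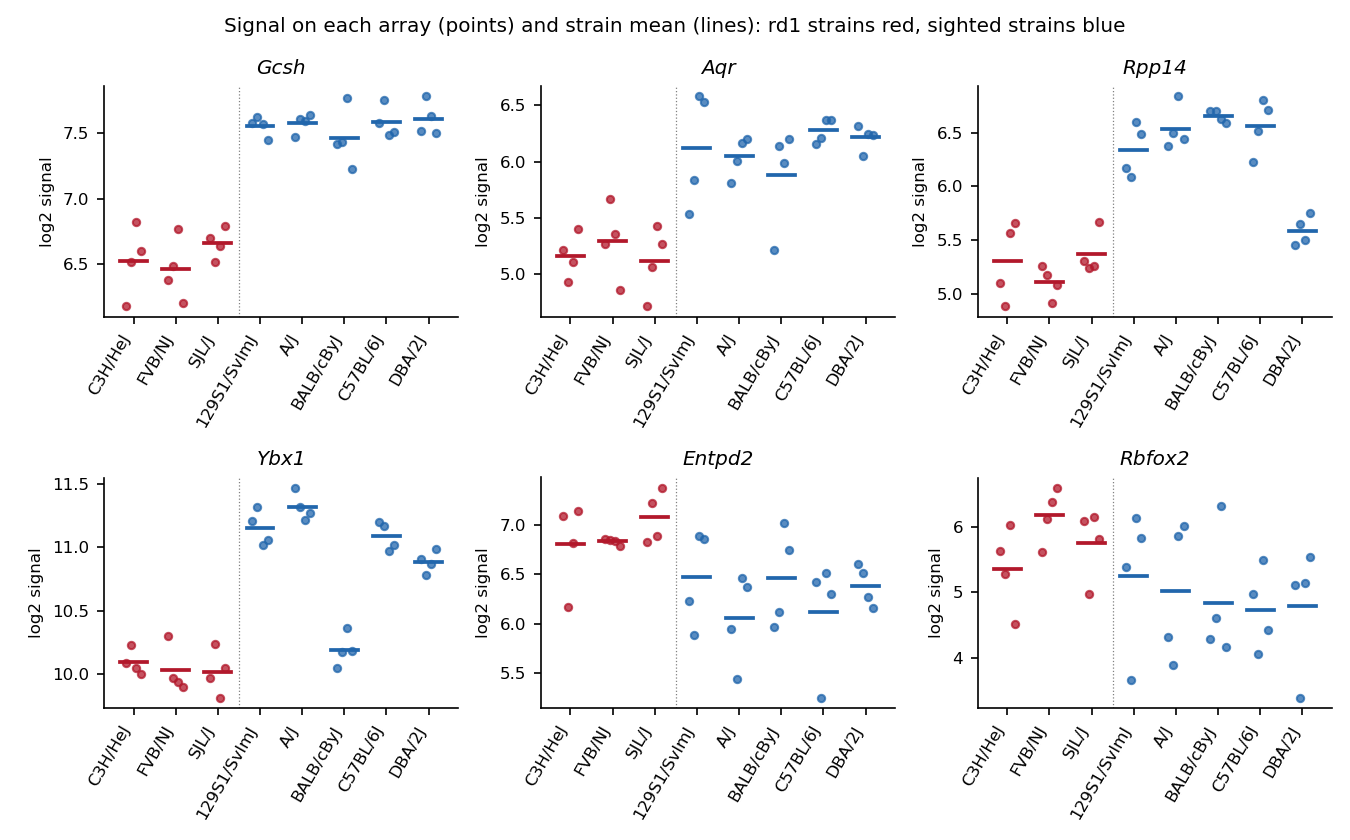
Log2 signal of 6 genes on every array (points) with strain means (lines), the 3 rd1 strains in red and the 5 sighted strains in blue. For Gcsh no rd1 array reaches a sighted array, whereas DBA/2J is near the rd1 strains for Rpp14 and BALB/cByJ for Ybx1.

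The Gcsh difference had the same sign in every subset of the data that was fitted, while its adjusted p moved across the threshold. Among arrays that carry the same day in their titles the difference was -1.095 on day A, -1.118 on day B, -0.918 on day C and -0.803 on day D, with adjusted p of 0.38, 0.28, 0.061 and 0.13. Day B holds no array of FVB/NJ, so C3H/HeJ and SJL/J alone stood for the rd1 strains there. The first preparation alone gave -1.11 (adjusted p = 0.046) and the second -0.90 (adjusted p = 0.058). The FVB/NJ array of day C was counted in the first preparation, whereas the day C arrays of other strains were counted in the second. Whether that FVB/NJ array belongs to the first preparation was not tested. Leaving out a strain gave between -1.06 and -0.96. The call was lost without C3H/HeJ (adjusted p = 0.13), FVB/NJ (0.15), SJL/J (0.062), SvImJ (0.065) or A/J (0.063), and also with FVB/NJ and SJL/J averaged to 1 value (-1.01, adjusted p = 0.078). Leaving out any of the 32 arrays kept it, with differences from -1.04 to -0.97. Without the arrays of high sense-strand control signal the value was -0.95 (adjusted p = 0.01, limma). That subset has no array of BALB/cByJ. For C3H/HeJ, SJL/J and A/J it keeps only arrays of the second preparation, while FVB/NJ, SvImJ, C57BL/6J and DBA/2J keep both. Preparation is therefore uneven between the sets there. Of the partners of Gcsh in glycine cleavage, chosen after their values were seen, the decarboxylase Gldc read 6.18 in both sets (difference -0.01 ± 0.14) and the dihydrolipoamide dehydrogenase Dld 7.97 against 7.99.

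**Figure D3:**
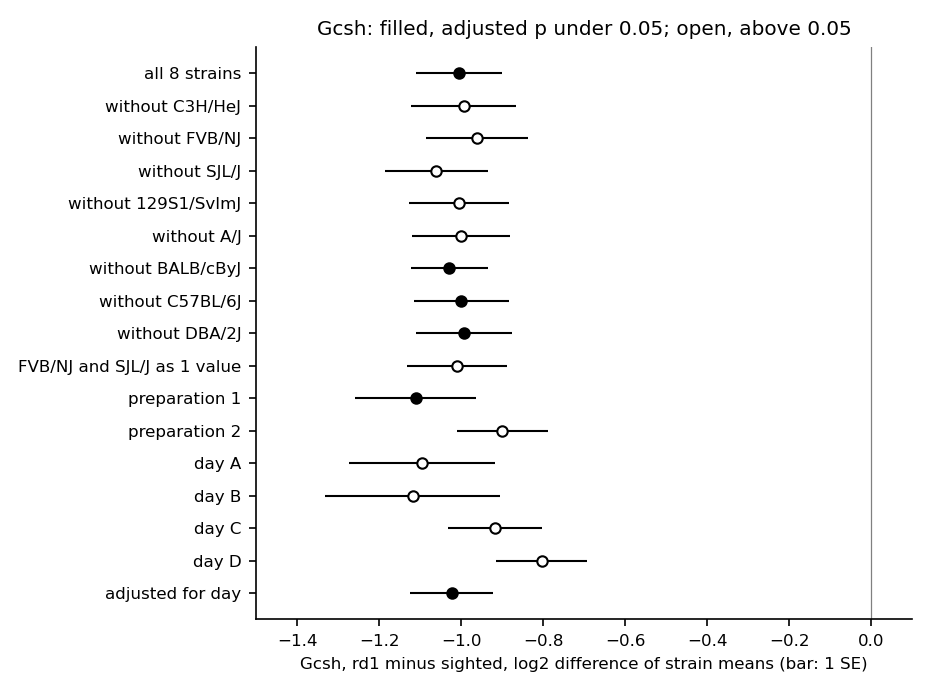
Difference of Gcsh between rd1 and sighted strain means (log2, horizontal axis, bar 1 SE) in the whole data and in subsets: without each strain, with the Swiss-derived strains averaged, by preparation and by day in the titles. Every value lies between -1.12 and -0.80, and filled points mark an adjusted p under 0.05.

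Besides Gcsh, the 3 genes with the largest negative differences past both criteria (no overlap and an unadjusted p under 0.05) were Rpp14, Aqr and Ybx1. Each missed the adjusted threshold, and they are part of the 45 probe sets lower in the rd1 strains by both criteria. Aqr, an RNA helicase of the spliceosome, ranged on the arrays from 4.71 to 5.67 (median 5.24) in the rd1 strains and from 5.21 to 6.58 (median 6.18) in the sighted strains. Its strain means were 5.16 in C3H/HeJ, 5.29 in FVB/NJ and 5.12 in SJL/J against 5.88 to 6.28 in the sighted strains, a 1.89-fold difference (-0.92 ± 0.14, adjusted p = 0.16). The lowest sighted array, 1 of BALB/cByJ at 5.21, lay among the rd1 arrays, and without BALB/cByJ the adjusted p was 0.041. Without any other single strain the adjusted p of Aqr was 0.36 or more (limma).

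Rpp14, a subunit of the RNase P and MRP ribonucleoproteins that process tRNA and rRNA, had the largest difference among probe sets past both criteria (-1.08 ± 0.23, 2.11-fold, adjusted p = 1). Its rd1 arrays ran from 4.88 to 5.67 (median 5.25) and its sighted arrays from 5.45 to 6.84 (median 6.49). DBA/2J, at a mean of 5.59, was close to the rd1 strains at 5.10 to 5.37, and the other sighted strains read 6.34 to 6.65. Without DBA/2J the difference was -1.27 ± 0.15 (adjusted p = 0.028). Without any other single strain the adjusted p of Rpp14 was 0.99 or more (limma). The second tested probe set of Rpp14 showed no such division, with 6.36 in the rd1 and 6.30 in the sighted strains.

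Ybx1, an abundant Y-box protein that binds messenger RNA, read 10.09, 10.03 and 10.02 in C3H/HeJ, FVB/NJ and SJL/J and 10.89 to 11.32 in 4 sighted strains, with BALB/cByJ at 10.19 (-0.88 ± 0.21, adjusted p = 1). Its rd1 arrays ran from 9.81 to 10.30 and its sighted arrays from 10.05 to 11.47, so the groups met only through BALB/cByJ. BALB/cByJ was the only strain whose omission brought the adjusted p of Ybx1 under 0.05. Without BALB/cByJ the difference was -1.07 ± 0.10 (adjusted p = 0.0066). On days C and D, which hold no array of BALB/cByJ, the difference was -1.08 ± 0.10 and -1.09 ± 0.09 (adjusted p = 0.013 and 0.0033, limma). Without the arrays of high sense-strand control signal it was -1.13 ± 0.09 (adjusted p = 0.0024, limma). That subset leaves out BALB/cByJ and is uneven in preparation between the sets.

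Among probe sets with no overlap of strain means and an unadjusted p under 0.05, none of the 12 genes with the largest positive differences passed the adjusted test (adjusted p = 1 for each, limma). The ligand Bmp6 of the bone morphogenetic protein family came first under these criteria (0.96 ± 0.29). Its strain means were 5.11, 5.09 and 5.11 in C3H/HeJ, FVB/NJ and SJL/J and 3.42 to 4.68 in the sighted strains. The mean of the sighted strains, 4.15, lay below the limit for testing (the log2 of a signal of 21.3), so Bmp6 passed that limit through the rd1 strains. The DNA damage clamp subunit Hus1 (0.89 ± 0.29), the tumour necrosis factor family ligand Cd70 (0.88 ± 0.26) and the splicing regulator Rbfox2 (0.84 ± 0.21) followed. Array values of Bmp6 and of these 3 overlapped. Bmp6 ran from 4.62 to 5.57 on rd1 arrays and from 1.54 to 5.23 on sighted arrays, and 4 rd1 arrays lay above all sighted arrays. Rbfox2 ran from 4.52 to 6.60 on rd1 arrays and from 3.38 to 6.32 on sighted arrays. For Hus1 only 7 rd1 arrays lay above all sighted arrays, and its lowest rd1 array read 2.77.

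Atp2b2, a plasma membrane calcium pump of neurons, was measured more tightly. Its rd1 arrays ran from 7.97 to 8.57 (median 8.17) and its sighted arrays from 6.60 to 8.24 (median 7.66), and 5 rd1 arrays lay above all sighted arrays (0.76 ± 0.26). The rd1 means of 8.06 to 8.36 sat just above A/J at 7.97 and SvImJ at 7.95 and far above C57BL/6J at 6.81 and DBA/2J at 6.96. The endoplasmic reticulum protein Jkamp had a like division, with 8.67 to 8.82 in the rd1 strains, 8.42 to 8.67 in SvImJ, BALB/cByJ and A/J, and 7.23 and 7.36 in C57BL/6J and DBA/2J (0.72 ± 0.32). C57BL/6J and DBA/2J were thus the low strains for both genes. Entpd2, an ectoenzyme that hydrolyses extracellular ATP, had rd1 means of 6.80, 6.83 and 7.07 and sighted means of 6.05 to 6.47 (0.60 ± 0.14, unadjusted p = 0.0016). Its arrays overlapped between 6.17 and 7.02. Tenm4, a teneurin of neuronal wiring, gave 0.59 ± 0.19, 0.50 ± 0.21 and 0.11 ± 0.32 on its 3 tested probe sets, and the first and second of these had no overlap of strain means. The Wnt pathway factor Tcf7l1 gave 0.59 ± 0.18 and 0.59 ± 0.32 on 2 probe sets. On the first of these its sighted mean of 4.31 lay below the limit for testing. The remaining genes were the proteasome subunit Psmd11 (0.59 ± 0.24), the sorting nexin Snx12 (0.56 ± 0.18) and Trbv1, a variable segment of the T cell receptor (0.68 ± 0.19), on a probe set that can read related transcripts.

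Of the 12 genes with the largest negative differences under the same criteria, 8 remain besides Gcsh, Rpp14, Aqr and Ybx1, each with an adjusted p of 1 (limma). The band 4.1 family protein Epb41l4a differed by -0.83 ± 0.25, the dynein arm assembly factor Dnaaf5 by -0.80 ± 0.22 and the endoplasmic reticulum membrane protein Ckap4 by -0.74 ± 0.26, all at rd1 means between 3.96 and 4.52. The rd1 means of Epb41l4a and Ckap4 lay below the limit for testing, which both passed through the sighted strains. Tpsb2, a mast cell tryptase, read 5.06 ± 0.41 against 5.72 ± 0.24 (SD, n = 3 and 5). Snw1, a spliceosome component and transcription coregulator, had rd1 means of 5.65 to 5.82 and sighted means from 5.95 in A/J to 7.02 in C57BL/6J (-0.65 ± 0.21). The elongin subunit Eloa (-0.61 ± 0.21), the peroxisomal fatty acid transporter Abcd2 (-0.58 ± 0.21) and the leucine-rich repeat protein Lrrc57 (-0.53 ± 0.20) completed the list. Lrrc57 too had an rd1 mean, 4.16, below the limit for testing. The day and the array set changed the sign for Abcd2, which was 0.04 on day D and 0.21 without arrays of high sense-strand control signal, for Dnaaf5, which was 0.12 on day A, for Hus1 (-0.22 on day D) and for Snx12 (-0.40 on day A).

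Second probe sets seldom gave the same picture. Of these 24 genes, 11 had another tested probe set, and for 9 of the 11 every other probe set differed by under 0.3 in the same direction or had the opposite sign. Tenm4 was the 1 gene with a further probe set of the same sign at an unadjusted p under 0.05. Rbfox2 gave -0.16 ± 0.32 on its other probe set, Hus1 -0.03 ± 0.20, Snx12 0.06 ± 0.13, Psmd11 -0.25 ± 0.18 and -0.26 ± 0.21, Eloa 0.05 ± 0.14, Dnaaf5 -0.07 ± 0.18 and Tpsb2 -0.06 ± 0.16.

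Differences of 2-fold or more were not tied to a clean division of the sets. Of 11 such probe sets, some of them named here after their values were seen, 3 had no overlap of strain means: Gcsh, Rpp14 and the exoribonuclease Xrn1. The lowest difference of any tested gene, -1.4, is not described here. Xrn1 read 5.52, 5.07 and 5.30 in C3H/HeJ, FVB/NJ and SJL/J and 5.03 in A/J, but 1.60 in DBA/2J (1.35 ± 0.63, unadjusted p = 0.056). The largest difference of all, 1.88 ± 0.51 on 1 probe set of the Rab GTPase regulator Tbc1d15, came with C57BL/6J at 5.56 among the rd1 strains at 5.44 to 5.87, and the second probe set gave 0.26 ± 0.19. The other sighted strains read 2.65 to 3.92. For Xrn1 and for this probe set of Tbc1d15 the mean of the sighted strains lay below the limit for testing. The non-coding RNA Norad differed by -1.13 ± 0.33, with SvImJ at 8.86 inside the rd1 range of 8.48 to 9.13, and by -0.15 ± 0.15 on its second probe set. Cnpy2, a chaperone-like protein, differed by -1.03 ± 0.28, yet SJL/J at 6.94 was near the sighted strains.

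Pde6b itself gave very low signal in the hippocampus. Its 2 probe sets were below the limit for testing: 1 read 1.34 ± 0.53 (SD, n = 3) in the rd1 and 2.00 ± 0.74 (n = 5) in the sighted strains, at the 8.73 percentile of all probe sets, and the other 3.97 ± 0.43 and 3.47 ± 0.65. At such signals the array does not check the genotype that defines the sets. Of the other subunits of the family, the rod catalytic subunit Pde6a (4.57 against 4.31) and the inhibitory subunit Pde6g (3.71 against 3.91) were below the limit too. Pde6d, a chaperone of prenylated proteins expressed well beyond the retina, was tested and read 7.01 ± 0.13 against 6.96 ± 0.36.

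Strains that share an allele can share the stretch of chromosome around it, and the genes around Pde6b on chromosome 5 were therefore set out in gene order. Of the 50 genes with a probe set nearest to Pde6b in gene order, 25 on each side, 39 were tested, and their median difference was 0.00, with a range from -0.22 to 0.25. The autophagy kinase Ulk1 was the 1 gene with no overlap of strain means and an unadjusted p under 0.05 (2.56% of the 39, against 2.05% by p and 2.21% by overlap among all 5660 tested genes). It read 7.04, 7.20 and 7.22 in C3H/HeJ, FVB/NJ and SJL/J and 6.84 to 6.98 in the sighted strains (0.24 ± 0.11, adjusted p = 1), and its second probe set gave 0.06 ± 0.19. The nearest tested genes on the 2 sides were the transcriptional repressor Dr1 (0.03 ± 0.17, with negative values on days A, B and D) and the ATP synthase subunit Atp5k (-0.14 ± 0.14). Over the whole of chromosome 5, 8 of 419 probe sets (1.91%) had no overlap of strain means. Among the 19 autosomes and X this share ran from 0.971% on chromosome 16 to 3.98% on chromosome 9.

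**Figure D4:**
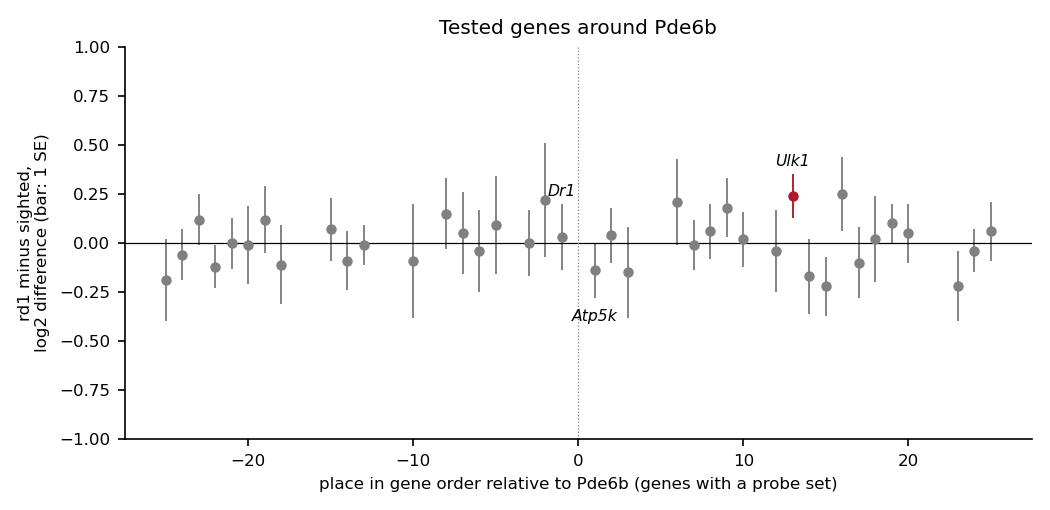
Log2 difference between rd1 and sighted strain means (vertical axis, bar 1 SE) for the 39 tested genes among the 50 nearest to Pde6b, by their place in gene order with Pde6b at 0. All lie between -0.22 and 0.25, and Ulk1, in red, is the 1 gene whose strain means do not overlap.

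The neighbours of Gcsh and Aqr were set out the same way, after the values of these genes were seen. Among all tested genes 2.05% had an unadjusted p under 0.05 and 2.21% no overlap. Of 40 tested genes around Gcsh, 0 had an unadjusted p under 0.05 by limma and 1, Gabarapl2, had strain means without overlap (-0.07 ± 0.09). The genes flanking it read close to equal in both sets, Cmc2 at 0.09 ± 0.13 and Cmip at 0.04 ± 0.10, while Zfp612 differed by 1.26 ± 0.58 with wide overlap (C57BL/6J at 3.61, SvImJ at 6.39). Around Aqr on chromosome 2, 3 of 39 tested genes had an unadjusted p under 0.05, against the same 2.05% of all tested genes, and all 3 had lower rd1 means: the adjacent cardiac actin gene Actc1 (-0.29 ± 0.13), the calpain Capn3 (-0.40 ± 0.13) and Lrrc57 (-0.53 ± 0.20). Their adjusted p was 1. A second probe set of Capn3 gave -0.35 ± 0.22, and the eye and forebrain factor Pax6, also in this stretch, had no overlap in the other direction (0.31 ± 0.19).

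No gene of the lists that bear on vision, the clock, activity or synapses passed the adjusted test. The shares below stand against 2.05% of all tested genes at an unadjusted p under 0.05 and a median difference of 0.00. Of all 5660 tested genes, 2869 had a positive and 2791 a negative difference. Of 42 genes of phototransduction and retina, 25 were on the array and 7 were tested. Rlbp1, the retinaldehyde carrier of the visual cycle, was the 1 member with an unadjusted p under 0.05: it read 5.99, 5.78 and 6.19 in C3H/HeJ, FVB/NJ and SJL/J and 5.41 to 5.71 in the sighted strains (0.43 ± 0.15, unadjusted p = 0.014), and 6 rd1 arrays lay above all sighted arrays. The photoreceptor transcription factor Crx (0.18 ± 0.22), the cone opsin Opn1mw (-0.20 ± 0.20) and the lipid-binding chaperone Unc119 (-0.06 ± 0.14) each had an unadjusted p of 0.33 or more. The rod markers Gnat1, Sag and Rcvrn were below the limit. Among 6 tested genes of retinoid metabolism and reception the median was -0.05, and Aldh1a1, which makes retinoic acid, had the lowest p (-0.57 ± 0.55, unadjusted p = 0.32). Of 19 tested genes of cyclic nucleotide signalling, 0 had an unadjusted p under 0.05 and their differences lay between -0.30 (Pde8a) and 0.15, around a median of -0.05.

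Of 17 tested genes of the circadian clock and melatonin, 13 had a positive and 4 a negative difference, with a median of 0.12, and 1 had an unadjusted p under 0.05. That was Per1, a repressor of the clock's feedback loop, at 5.92, 6.19 and 5.93 in C3H/HeJ, FVB/NJ and SJL/J (-0.36 ± 0.13, unadjusted p = 0.018). The sighted strains read 6.19 to 6.49, so FVB/NJ and SvImJ met at 6.19. The activators Clock (-0.08 ± 0.17) and Arntl (0.02 ± 0.12), the repressors Cry1 (0.20 ± 0.13) and Cry2 (0.03 ± 0.11), and the output factors Dbp (0.21 ± 0.18) and Tef (0.21 ± 0.13) each had an unadjusted p of 0.12 or more. The hour of tissue collection is not stated in the labels.

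Immediate early genes, which neurons switch on with activity, were tested in 16 members, 11 of them with a negative difference and a median of -0.11. None had an unadjusted p under 0.05. Junb had strain means without overlap, 6.58 to 6.70 against 6.75 or more (-0.23 ± 0.12), but its sign turned on days A and D. Fos (-0.08 ± 0.26), Egr1 (-0.15 ± 0.13) and Nr4a1 (-0.11 ± 0.18) did not separate the sets.

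Genes of synaptic transmission showed few differences. Of 10 tested glutamate receptor genes 0 had an unadjusted p under 0.05, and the AMPA receptor subunits Gria1 and Gria2 read 10.62 and 11.29 in the rd1 strains against 10.60 and 11.42. Of 9 tested genes of GABA synthesis, transport and reception, 8 had a positive difference with a median of 0.22, and 0 had an unadjusted p under 0.05. A single sighted strain was far below all others for Slc32a1 (DBA/2J at 6.89) and for Gabra2 (C57BL/6J at 6.53). The synthesising enzyme Gad1 differed by 0.06 ± 0.15 and the receptor subunit Gabrb2 by 0.31 ± 0.17. The summed level of this list, as a mean over its genes, was 7.57 to 7.62 in the rd1 strains and 7.10 to 7.66 in the sighted strains. Among 17 neurotrophin and plasticity genes the postsynaptic scaffold Dlg4 (PSD-95) was lower in all rd1 strains, at 9.18 to 9.32 against 9.35 to 9.85 (-0.32 ± 0.12, unadjusted p = 0.025, adjusted p = 1). Its rd1 arrays ran from 8.86 to 9.52 and its sighted arrays from 9.16 to 10.09. Bdnf (0.11 ± 0.22), Camk2a (0.16 ± 0.40) and Ntrk2 (0.05 ± 0.64) did not separate. Among 8 tested stress genes Npy, the inhibitory peptide of interneurons, read 8.02 to 8.06 in the rd1 strains and 8.11 to 8.73 in the sighted strains (-0.32 ± 0.14, unadjusted p = 0.045). BALB/cByJ at 8.11 and A/J at 8.17 were nearest to the rd1 strains. On day B alone, which holds no array of FVB/NJ, the Npy difference was 0.05.

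Markers of cell types put the cellular make-up of the pools side by side. Fewer cells of a type and less RNA per cell cannot be told apart in such tissue RNA. Of 9 tested astrocyte genes the water channel Aqp4 had an unadjusted p under 0.05: 8.92, 8.71 and 8.86 in C3H/HeJ, FVB/NJ and SJL/J against 8.04 to 8.61 (0.44 ± 0.14, unadjusted p = 0.008, adjusted p = 1). Its second probe set gave 0.39 ± 0.15, with overlap. The astrocyte list had a mean level of 8.00 to 8.14 in the rd1 strains and 7.92 to 7.98 in the sighted strains, a narrow gap between the sets. No other list had such a gap, and a share of 0.0357 of means is fully divided when none differs. The astrocyte genes had 6 positive and 3 negative differences, and that of Aqp4 was the largest. The filament gene Gfap differed by 0.17 ± 0.12 on the brighter of its 2 probe sets and by 0.40 ± 0.14 on the other (6.47 to 6.53 against 5.79 to 6.36, unadjusted p = 0.018), while Aldoc differed by -0.09 ± 0.14. Of 9 myelin genes 0 had an unadjusted p under 0.05, and Mbp read 10.81 against 10.80. Of 9 microglial and complement genes 8 had a negative difference, against 2791 of 5660 among all tested genes. The largest was that of C1qb (-0.43 ± 0.36), and again 0 had an unadjusted p under 0.05. Their mean level was 6.94 to 7.12 in the rd1 strains and 6.98 to 7.34 in the sighted strains.

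Among 6 tested vessel genes the pericyte regulator Rgs5 differed by -1.23 ± 0.52 (unadjusted p = 0.037, limma) and by -1.02 ± 0.34 on its second probe set (unadjusted p = 0.012). On both, the rd1 mean (4.35 and 4.10) lay below the limit for testing. On the first, SvImJ at 4.54 and A/J at 4.19 were as low as the rd1 strains at 4.17 to 4.53, and BALB/cByJ, C57BL/6J and DBA/2J read 6.16 to 6.64. The endothelial genes Cldn5 (-0.16 ± 0.15) and Pecam1 (-0.17 ± 0.24) did not separate the sets. Of 11 interneuron genes Npy alone had an unadjusted p under 0.05, and Pvalb differed by -0.01 ± 0.11 and Sst by 0.00 ± 0.13. The 13 genes of hippocampal fields had a median of 0.01, and Nnat had the lowest p among them (-0.69 ± 0.37, unadjusted p = 0.089), with SJL/J at 8.38 and the other strains at 9.83 or more.

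Markers of tissue that borders the hippocampus and of blood were read the same way. All 4 tested choroid plexus genes had a positive difference with a median of 0.37, and 0 had an unadjusted p under 0.05. Their mean level was 6.50 to 6.67 in the rd1 strains and 5.74 to 6.66 in the sighted strains. The 9 meningeal genes had a median of 0.01, and the 12 genes of thalamus, striatum and cortex one of 0.00. The alpha globin gene Hba-a1 read 10.39 in C3H/HeJ, 9.79 in FVB/NJ and 9.51 in SJL/J against 9.19 to 9.53 (0.50 ± 0.17, unadjusted p = 0.015), and the 3 tested red blood cell genes had mean levels of 8.60 to 9.35 and 8.48 to 8.96. The part of these levels, and of the astrocyte level, in the other differences was not tested.

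**Figure D5:**
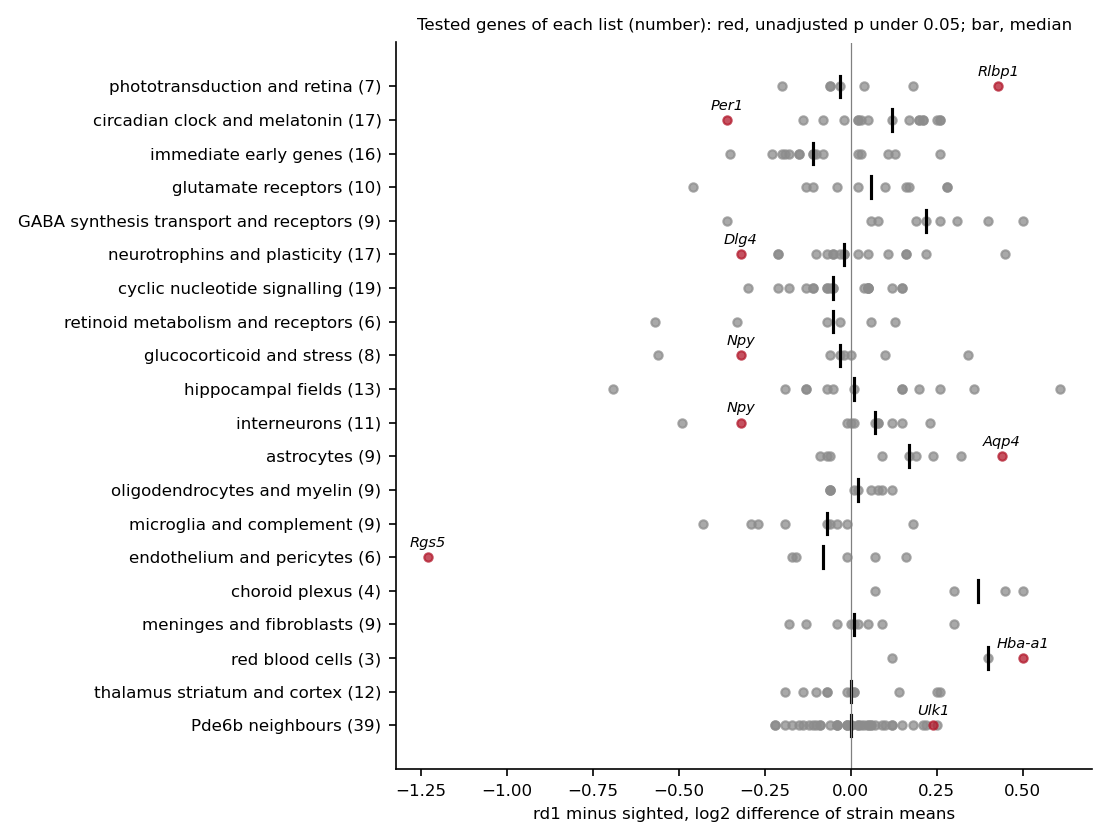
Log2 difference between rd1 and sighted strain means (horizontal axis) for the tested genes of each list, with the number tested in brackets and the median as a bar. Red points have an unadjusted p under 0.05; none of these genes has an adjusted p under 0.05.

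Over all tested probe sets the distances among the rd1 strains lay within the range of other pairs. The median size of the log2 difference was 0.174 between FVB/NJ and SJL/J, 0.176 between C3H/HeJ and SJL/J and 0.198 between C3H/HeJ and FVB/NJ. The 10 pairs of sighted strains ran from 0.153 to 0.374 (median 0.203) and the 15 pairs with a strain of each set from 0.150 to 0.355 (median 0.201). SvImJ was nearer to SJL/J (0.150) and FVB/NJ (0.155) than any rd1 strain was to another. BALB/cByJ was part of the 7 most distant pairs, at 0.286 or more. Between FVB/NJ and SJL/J 97 probe sets differed by 2-fold or more, and between the other rd1 pairs 130 and 153. The pairs with a strain of each set had 111 to 475, and the sighted pairs 134 to 613.

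The rd1 strains also differed from one another. A moderated F-test in limma, run over their preparations, gave 76 probe sets (1.02%) with an adjusted p under 0.05, and 170 with the preparation number as a block. Here the error is that of preparations from 1 pool, not of animals, and this test was added after the data were seen. Of the 76, 64 spanned 2-fold or more, and C3H/HeJ was the strain that stood apart for 45, FVB/NJ for 17 and SJL/J for 14. The widest spans were those of Pdxdc1, at 8.15 in C3H/HeJ and 3.32 and 3.28 in FVB/NJ and SJL/J (F-test adjusted p = 4.6e-07), and of the small nucleolar RNA host Gas5, at 6.19 in C3H/HeJ and 9.53 and 9.29 in the others (F-test adjusted p = 6.9e-08). The 2 other probe sets of Pdxdc1 ran the opposite way, with 3.47 in C3H/HeJ against 6.92 and 7.03, and 4.94 against 6.72 and 6.71. Ergic1, a protein of the early secretory pathway, was 4.97 in C3H/HeJ and 7.10 and 7.11 in FVB/NJ and SJL/J. FVB/NJ alone was low for Acad9, a factor of respiratory complex I assembly (4.36 against 6.53 and 6.63), and for the growth factor Fgf1 (4.36 against 6.39 and 6.12). The chemokine receptor Ccr6 was lowest in SJL/J (2.95 against 5.71 and 4.52, F-test adjusted p = 0.016). For each of these 6 genes the means of the sets differed by 0.71 or less.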

How the data were processed

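RNA of hippocampus was measured on 32 Affymetrix U74Av2 arrays. The strain called SvImJ in the text is 129S1/SvImJ. The authors deposited linear intensities, a signal for each probe set on each array, and MAS5 is the tool their processing notes name (per the labels), with no version. The scaling target is not given in the sources used here. Signals under 1 (2.14%) were set to 1, log2 was taken and the 4 arrays of a strain were averaged. After 66 controls were left out, probe sets in the top 60% by mean (signal of 21.3 or more) were tested. Names came from the platform's annotation: 6743 tested probe sets had 1 symbol, 238 several and 472 none here. The RefSeq table of GRCm38.p6 served for names and gene order only. Suffixes such as _s_at or _f_at mark probe sets that can read several transcripts. The suffix _r_at marks probe sets picked with some selection rules dropped, whose reading can be less specific.

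limma 3.58.1 in R 4.3.3 (lmFit, eBayes with trend) compared 3 with 5 strain means, with 6 residual and 4.9 prior degrees of freedom and Benjamini-Hochberg adjustment over 7453 probe sets. The fit was tested on simulated data. Preparation numbers pair the arrays, per the series design: differences between preparations correlated for all 28 pairs of strains (r from 0.109 to 0.557). With the preparation number as a block, 195 probe sets had an unadjusted p under 0.05 and 1 passed the adjusted threshold.

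Named were probe sets past the adjusted threshold, the 12 largest differences each way among those with no overlap and an unadjusted p under 0.05, Pde6b and its neighbours, and up to 4 genes per list (or the 1 of lowest p). In a list the probe set of highest mean stood for a gene. Sets, lists and rule were chosen with earlier results of these data known. Other genes named in passing were chosen after their values were seen or illustrate a list.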

Additional observations from a re-analysis of the deposited data

Results flagged for a closer look

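Among the 5 sighted strains, 1 strain mean stood far from the other 4 for 3 of the 45 named probe sets. BALB/cByJ read 6.14 for Tpsb2, where the other sighted strains read 5.56 to 5.69. BALB/cByJ read 5.16 for Aldh1a1, against 7.05 to 7.79. C57BL/6J read 8.31 for Mag, a myelin glycoprotein, against 7.15 to 7.49. Chance flags about 1 in 20 groups by this measure, and 8.99% of all tested probe sets passed it.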

How the results depend on the processing

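Gcsh was called in 49 of 60 alternatives, and in the other 11 its adjusted p was 0.058 to 0.38 (limma). Of the 60, 32 left out a single array, a small change, and all 32 kept the call. The 11 losses were thus all among the remaining alternatives, so 49 of 60 overstates how steady the call was. The offsets of 16 and 64, quantile or median centring, the variance trend, its robust form and the preparation block left all 3 counts within 1.5 times. Past the adjusted threshold were 78 probe sets with preparations as the unit, 3 without the arrays of high sense-strand control signal (Gcsh, Ybx1, Aqr), 1 on days C and D (Ybx1) and 0 on days A and B, in preparation 2 and with FVB/NJ and SJL/J averaged. Leaving out 1 strain or array gave 0 to 3: 3 without BALB/cByJ (Gcsh, Ybx1, Aqr), 2 without DBA/2J (Gcsh, Rpp14) and 0 without SvImJ, A/J, C3H/HeJ, FVB/NJ or SJL/J. The count at an unadjusted p under 0.05 then ran from 127 to 242. Counts at an unadjusted p under 0.05 were 339 with no filter, 100 with the top 40%, 512 with preparations as the unit, 255, 306, 416 and 324 on days A to D, 107 with FVB/NJ and SJL/J averaged and 642 without high-sense arrays. The count with no overlap was 316 with no filter, 114 with the top 40%, 645, 504 and 408 on days B, C and D, 360 with FVB/NJ and SJL/J averaged and 726 without high-sense arrays, and 158 to 516 leaving out 1 strain or array. Fewer probe sets change both counts by construction, and fewer strains change the count with no overlap. Without BALB/cByJ alone the counts were 242 at an unadjusted p under 0.05 and 330 with no overlap. The subset without high-sense arrays also lacks BALB/cByJ, and its preparations are uneven between the sets. What raised its counts was not tested, nor were other causes. With the exact permutation test 180 probe sets reached its smallest p. Only strain means without overlap reach it, so this is the count of no overlap again and no separate check. The count among the rd1 strains was 170 with the preparation block; the block changed no other call.

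Of 45 named probe sets 32 kept their sign in every alternative. On day A Snx12 was -0.397, Dnaaf5 0.124, Dr1 -0.232, Junb 0.163 and Fn1 0.061. On day B, which holds no array of FVB/NJ, Dr1 was -0.379, Pde8a 0.081, Npy 0.048 and Laptm5 0.005. On day C Grin2d was 0.497 and Pde8a 0.162. On day D Hus1 was -0.222, Abcd2 0.044, Dr1 -0.010, Atp5k 0.052, Junb 0.019, Grin2d 0.098 and Mag -0.080. Dr1 was -0.064 adjusted for day and -0.223 in preparation 1, Grin2d 0.027 in preparation 2. Without high-sense arrays Abcd2 was 0.206, Grin2d 0.117 and Mag -0.008. Leaving out 1 strain or array, Dr1 ran from -0.092 to 0.101.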
